A study of Mus musculus with 6 samples.

Results

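The genes described here are the cyclins, the cyclin-dependent kinases (CDKs), the CDK-like kinases and the CDK inhibitors that were named in lists of H3K9ac intervals from the mouse intestinal epithelium. H3K9ac, the acetylation of a lysine in the tail of histone H3, marks active promoters. The members were chosen by symbol from the genes that the 6 lists name, so a called interval in at least 1 list, at the promoter or elsewhere, is what selected them. They were 34 of the 9697 protein-coding genes named in the lists. The RefSeq table holds 51 protein-coding symbols of this spelling, and the other 17, among them Ccnb1, Ccnd1, Ccne1, Cdk1 and Cdk4, were not analysed here. Because presence in the lists chose the members, the counts of members below are descriptions, and no p is read from them.

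Chromatin was immunoprecipitated with an H3K9ac antibody from the epithelial cells lining the distal gut of C57BL/6 mice (labelled intestinal epithelial cells, distal intestine). Germ-free mice, mice monoassociated with E. coli (colonized with that bacterium alone) and conventionally housed mice gave 2 libraries each, 6 in all. All groups shared the strain, tissue and antibody, and no genetic change is named in the labels. Whether the libraries of a group are separate animals is not said in the labels, and their spread may therefore be technical. Chromatin came from bulk cells, and a mark on fewer cells cannot be told apart from a weaker mark in each cell.

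Cyclins are regulatory subunits that switch on CDKs, and the inhibitors of the Cdkn1 and Cdkn2 families hold the cell-cycle CDKs in check. One branch of the family, with D, E, A and B cyclins, drives the division cycle, which in the intestinal epithelium runs in the crypts and stops as cells move onto the villi. The other branch works on RNA polymerase II: Cdk7 with Ccnh in the general transcription machinery, Cdk8 and Cdk19 with Ccnc in Mediator, Cdk9 with Ccnt1 or Ccnt2 in elongation, Cdk12 and Cdk13 with Ccnk later in elongation, and Cdk11b with Ccnl1 or Ccnl2 in splicing.

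List lengths, with replicate 1 before replicate 2 in each pair, were 4430 and 17094 intervals for germ-free, 1988 and 870 for E. coli and 3117 and 15352 for conventional mice. The 2 libraries of a group are called its pair here, always in that order. The labels state 20 M reads of 50 bp for each library. The background pileup (the constant coverage by extended reads that the authors' fold enrichment implies) was 0.733 in germ-free replicate 1, 0.69 and 0.403 for the E. coli pair and 0.413 and 0.381 for the conventional pair, and the list of germ-free replicate 2 holds no pileup. The lowest fold listed lay between 3.62 and 4.28, and a promoter whose enrichment was weaker than that would have no interval even if it carried the mark. The labelled cell type was checked against its markers: all 11 epithelial markers had a promoter interval in some library and 6 had one in all 6 (Vil1, Cdx2, Epcam, Cdh1, Cldn7 and Lgals4). None of 12 immune cell markers and none of 13 markers of stroma, endothelium, muscle and nerve had one in any library.

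Promoter sequences are shown for 5 members on which the group patterns below turn. Ccnl1, Cdkl2, Cdkn1b and Cdkn2b each fell into a pattern of both libraries of 1 group and neither of another, and Ccnl2 is the close relative of Ccnl1. The 250 bases before the RefSeq start site are given 5′ to 3′ on the strand of the gene (RefSeq, GRCm38.p6), at chr3:65958250-65958499 on the minus strand for Ccnl1, chr4:155812239-155812488 on the plus strand for Ccnl2, chr5:92043043-92043292 on the minus strand for Cdkl2, chr6:134920151-134920400 on the plus strand for Cdkn1b and chr4:89311033-89311282 on the minus strand for Cdkn2b. Capitals mark matches to the motifs searched.
Ccnl1: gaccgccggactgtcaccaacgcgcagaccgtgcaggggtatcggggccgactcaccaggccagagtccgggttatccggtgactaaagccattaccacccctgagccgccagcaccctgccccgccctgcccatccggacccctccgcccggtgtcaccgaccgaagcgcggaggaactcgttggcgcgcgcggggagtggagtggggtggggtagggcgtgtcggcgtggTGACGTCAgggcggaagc
Ccnl2: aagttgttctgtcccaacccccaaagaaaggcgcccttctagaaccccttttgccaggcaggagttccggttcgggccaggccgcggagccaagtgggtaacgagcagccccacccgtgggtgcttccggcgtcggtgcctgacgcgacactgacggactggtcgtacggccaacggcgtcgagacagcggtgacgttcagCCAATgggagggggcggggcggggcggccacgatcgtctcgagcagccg
Cdkl2: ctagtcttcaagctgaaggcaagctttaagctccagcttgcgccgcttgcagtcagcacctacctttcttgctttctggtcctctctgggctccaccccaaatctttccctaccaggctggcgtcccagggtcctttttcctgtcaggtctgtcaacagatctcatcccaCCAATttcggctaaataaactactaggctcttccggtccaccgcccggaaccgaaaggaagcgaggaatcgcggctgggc
Cdkn1b: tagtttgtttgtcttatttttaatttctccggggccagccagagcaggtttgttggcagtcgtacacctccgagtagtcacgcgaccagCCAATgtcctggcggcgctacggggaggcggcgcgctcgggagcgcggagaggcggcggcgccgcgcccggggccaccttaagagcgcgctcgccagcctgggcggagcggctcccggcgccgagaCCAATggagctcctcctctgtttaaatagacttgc
Cdkn2b: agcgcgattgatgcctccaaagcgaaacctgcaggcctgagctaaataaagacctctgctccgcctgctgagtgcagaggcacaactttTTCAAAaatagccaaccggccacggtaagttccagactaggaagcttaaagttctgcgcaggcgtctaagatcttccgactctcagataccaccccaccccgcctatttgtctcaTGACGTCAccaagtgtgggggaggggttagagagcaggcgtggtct
The capitals in Ccnl1 are a palindromic CRE word 18 bases before the start, and Cdkn2b holds the same word 46 bases before its start, downstream of a CHR word on the opposite strand at 161 bases. Cdkl2, Ccnl2 and Cdkn1b hold CCAAT words, at 80 and 49 bases and, for Cdkn1b, at 161 and 35 bases before their starts. The printed RefSeq start of Ccnl1 lies 24 bp from the start site in the lists, and the other 4 starts are the same in both. All 250 bases of Ccnl1 lay inside an interval in conventional replicate 2 and 33 in germ-free replicate 1. For Cdkl2 96 and 100 bases lay inside intervals in the germ-free libraries, for Ccnl2 106 in germ-free replicate 2, and for Cdkn1b 30 in that library and 55 in conventional replicate 2. For Cdkn2b none did in any library, and its intervals all lay downstream of the start.

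A promoter interval (an interval tied to the gene that overlaps 1 kb on either side of its start site) was called for 30 of the 34 members in at least 1 library (88.2%, against 83.5% of all 9697 genes). No member had one in all 6 libraries, against 2.25% of all genes. By library, 11 members were called in germ-free replicate 1 (32.4%, against 24.8% of all genes) and 26 in germ-free replicate 2 (76.5%, against 66.9%). In E. coli replicate 1 there were 4 (11.8%, against 9.5%) and in E. coli replicate 2 there was 1 (2.94%, against 4.22%). The conventional libraries had 10 (29.4%, against 20.5%) and 27 (79.4%, against 74.1%). The libraries came in the same order by the members' share as by the share of all genes.

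**Figure D1:**
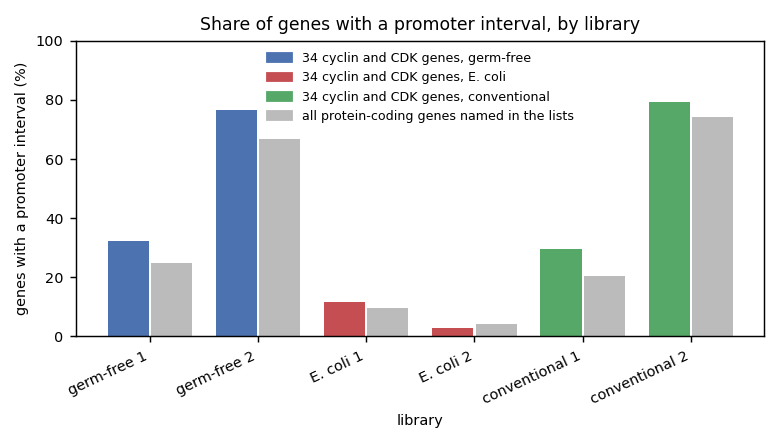
Share of genes with a promoter interval (%, vertical axis) in each library (horizontal axis), coloured bars for the 34 members and grey bars for all 9697 protein-coding genes named in the lists. The members lie above the grey bar in 5 libraries and below it in E. coli replicate 2, where 1 member was called.

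Members with a promoter interval were fewest in the E. coli libraries. The group means were 18.5 ± 10.6 in germ-free, 2.5 ± 2.12 in E. coli and 18.5 ± 12 in conventional libraries (SD, n = 2 each). Both E. coli values, 4 and 1, lay below all 4 values of the other groups, while the germ-free values (11 and 26) and the conventional values (10 and 27) overlapped. On the log2 scale the number of members was -3.08 in E. coli minus germ-free, 3.04 in conventional minus E. coli and -0.04 in conventional minus germ-free. The last of these turned to 0.58 without germ-free replicate 2, to 0.67 without conventional replicate 1 and to 0.34 where 200 bp of overlap was asked for. With each list reduced to its 870 most significant intervals, E. coli minus germ-free was -2.4 and conventional minus E. coli 1.66. Members called were then 7 and 4 for the germ-free pair, 1 for each E. coli library and 2 and 5 for conventional mice. The shares of all genes called were 5.33% and 6.65% (germ-free), 4.05% and 4.22% (E. coli) and 5.73% and 7.38% (conventional). These reduced differences thus rest on 1 member in each E. coli list. With 2 libraries against 2, an exact permutation of the libraries gives no p below 0.33, so no difference between groups could pass 0.05. Between the libraries of a pair the number differed 2.36 times (germ-free), 4 times (E. coli) and 2.7 times (conventional). Of the 3 libraries with a background pileup between 0.381 and 0.413, E. coli replicate 2 called 1 member and the conventional libraries 10 and 27. Of the 2 with a higher one, germ-free replicate 1 (0.733) called 11 and E. coli replicate 1 (0.69) called 4. Whether the pileup bears on the number of calls was not tested.

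**Figure D2:**
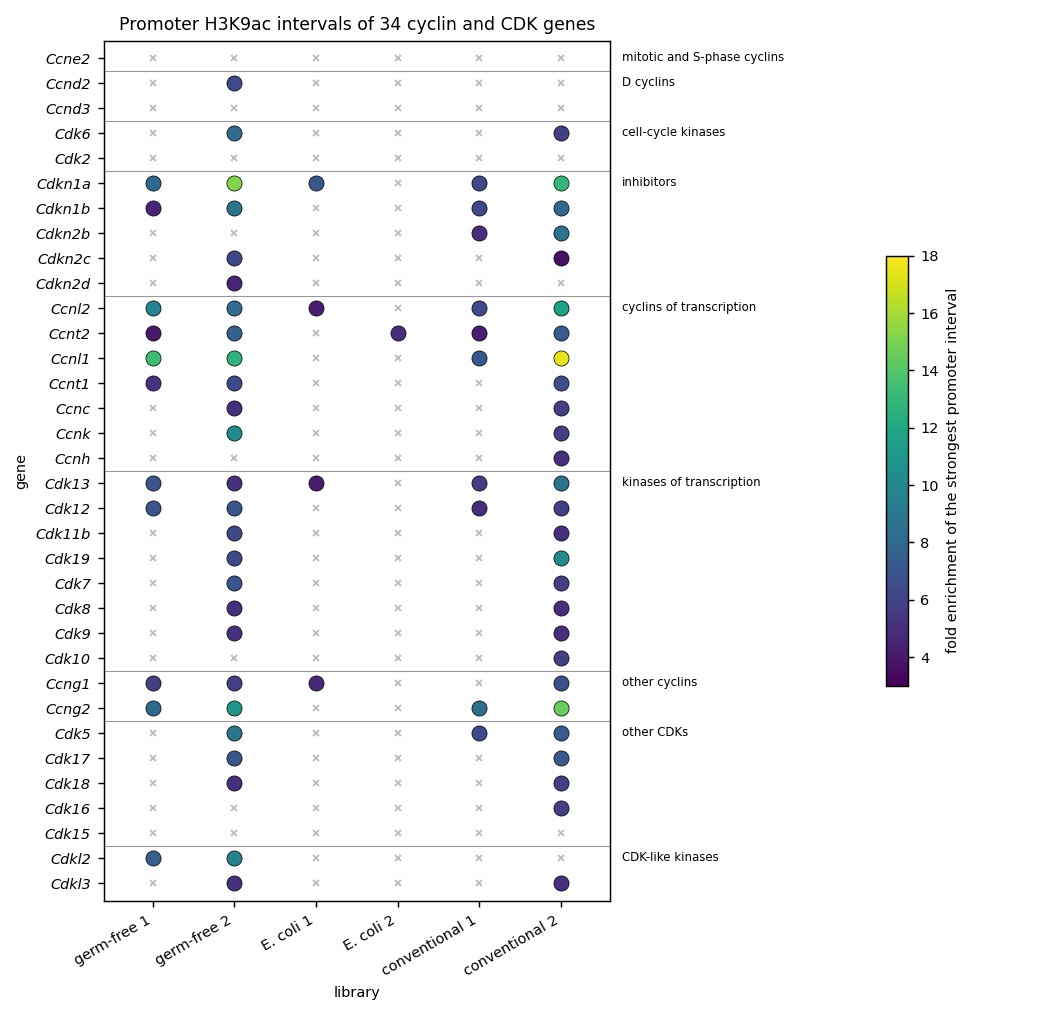
Strongest promoter interval of each of the 34 members (rows, grouped by role) in each library (columns). Colour gives the authors' fold enrichment, relative to the background of that library's own list, and a grey cross stands for no promoter interval. The 2 E. coli columns hold 5 circles in all, and the rows of cyclins and kinases of transcription are filled in conventional replicate 2.

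Among the 5 members of the division cycle, 2 had a promoter interval in some library (83.5% of all genes did), and these calls were in the 2 longest lists, germ-free replicate 2 and conventional replicate 2. Ccne2 and Cdk2, the cyclin E and kinase of S phase entry, and Ccnd3 had no promoter interval in any library. Ccnd2, a D cyclin that answers growth signals, had promoter intervals in germ-free replicate 2 alone, of 6.33-fold enrichment and shared with the transcript 9330179D12Rik. One of them was overlapped by an interval of conventional replicate 2 (5.07-fold) that is tied to that transcript only and began 38 bp outside the window of Ccnd2. Cdk6, a kinase partner of the D cyclins, had one in germ-free replicate 2 (8.24-fold) and in conventional replicate 2 (5.79-fold), and these did not overlap each other. In conventional replicate 2 a stronger interval of 7.24-fold ended 9 bp outside the window of Cdk6, upstream, and it overlapped the germ-free promoter interval. An interval of conventional replicate 1 (5.66-fold) overlapped it as well and ended 363 bp outside the window. Away from promoters, Cdk2 had an intronic interval in germ-free replicate 1 (6.93-fold), Ccne2 an upstream one in conventional replicate 2 (5.79-fold) and Ccnd3 intronic ones in germ-free replicate 1 (5.77-fold) and E. coli replicate 1 (4.73-fold), which did not overlap.

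Each of the 5 inhibitors had a promoter interval in some library, where 83.5% of all genes had one. For the germ-free pair 2 and 4 were called (24.8% and 66.9% of all genes). For E. coli mice 1 and 0 were called (9.5% and 4.22%), and for conventional mice 3 and 4 (20.5% and 74.1%). Cdkn1a, an inhibitor of cell-cycle CDKs that p53 induces, had promoter intervals in 5 libraries: 8.08-fold and 15.2-fold in the germ-free pair, 7.1-fold in E. coli replicate 1, and 6.37-fold and 13-fold in the conventional pair. E. coli replicate 2 had none. Among genes with a promoter interval in the same list, these folds stood at the 92.2nd, 99.2nd, 88.6th, 66.3rd and 97th percentile, so Cdkn1a was among the stronger promoters of every list that held it except conventional replicate 1. All of its promoter intervals lay at the downstream start site (chromosome 17, 29093772), where the germ-free and the conventional replicates overlapped by 216 and 397 bp. In conventional replicate 1 an interval of 8.49-fold, stronger than its promoter interval, began 1022 bp past that start.

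Cdkn1b, which holds CDKs inactive in resting cells, was called in all 4 germ-free and conventional libraries and in neither E. coli library. Its strongest promoter intervals had 4.62-fold and 8.87-fold enrichment in the germ-free pair and 6.37-fold and 7.97-fold in the conventional pair. The calls covered different stretches of the promoter. The single interval of germ-free replicate 1 ran from -620 to -475 bp relative to the start, that of conventional replicate 1 lay 102 to 256 bp past it, and the long lists had 5 and 3 intervals across both stretches. The germ-free replicates overlapped by 75 bp, the smallest overlap of any member called in both libraries of a group.

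Cdkn2b, an inhibitor of Cdk4 and Cdk6 that TGF-beta induces, was the only member called in both conventional libraries and neither germ-free library (1 of 34, against 0.66% of all genes). Its strongest promoter intervals had 4.95-fold and 8.69-fold enrichment in conventional replicates 1 and 2 and overlapped by 441 bp, and that of replicate 2 spanned 679 to 1219 bp past the start. The one of conventional replicate 1 rested on a pileup of 6 extended reads and that of replicate 2 on 11. Neither germ-free list held any interval tied to Cdkn2b, at the promoter or elsewhere, and E. coli replicate 2 held an intronic one of 6.41-fold, 1752 to 1898 bp past the start, that overlapped an intronic interval of conventional replicate 2. Of the related inhibitors, Cdkn2c was called in germ-free replicate 2 (6.33-fold) and conventional replicate 2 (3.62-fold, the lowest fold of that list), and Cdkn2d in germ-free replicate 2 alone (4.43-fold).

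Of the members that act in transcription and RNA processing, 7 of 7 cyclins and 8 of 8 kinases had a promoter interval in some library, where 83.5% of all listed genes had one. In conventional replicate 2 each of them was called, against 74.1% of all genes. In E. coli replicate 1 the calls were Ccnl2 and Cdk13 (9.5% of all genes were called) and in E. coli replicate 2 only Ccnt2 (4.22%). Ccnl1, a cyclin of splicing, had the highest promoter fold of any member in germ-free replicate 1 and also in conventional replicate 2. Its strongest promoter intervals had 13.3-fold and 12.7-fold enrichment in the germ-free pair and 7.08-fold and 17.4-fold in the conventional pair, and neither E. coli list had one. These stood at the 99.6th, 97.6th, 81.5th and 99.6th percentile of their lists, and they rested on pileups of 22 extended reads in germ-free replicate 1 and 9 and 23 in the conventional pair. Ccnl1 promoter intervals covered 1057 and 2587 bp in the germ-free pair and 212 and 1736 bp in the conventional pair. The replicates overlapped by 255 bp in germ-free and 212 bp in conventional mice. An upstream region of Ccnl1, from -16546 to -15815 bp relative to its start, was called in germ-free replicate 2 (5.07-fold), conventional replicate 2 (5.79-fold) and E. coli replicate 1 (4.14-fold), so an E. coli list held an interval tied to Ccnl1 while its promoter had none.

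Ccnl2, the other cyclin L gene, was called in every library except E. coli replicate 2. The strongest promoter intervals had 9.81-fold and 8.24-fold enrichment in the germ-free pair, 4.14-fold in E. coli replicate 1, and 6.37-fold and 11.6-fold in the conventional pair. The E. coli value was the lowest fold of its list. The germ-free replicates overlapped by 894 bp at Ccnl2, the widest overlap of any member, and the intervals of all 5 libraries merged into a region 127 to 1337 bp past the start. Ccnl1 and Ccnl2 were thus alike in the germ-free and conventional lists and differed by 1 interval at the limit of E. coli replicate 1.

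Ccnt1 and Ccnt2 supply the cyclin of the elongation kinase Cdk9. Ccnt2 was the single member with a promoter interval in E. coli replicate 2, at 4.99-fold, beside 4.04-fold and 7.6-fold in the germ-free and 4.25-fold and 7.24-fold in the conventional pair. In germ-free replicate 1 and conventional replicate 1 these values were the lowest folds of the lists, and E. coli replicate 1 had none. Ccnt1 had intervals at 5.19-fold and 6.33-fold in the germ-free pair and 6.52-fold in conventional replicate 2, and none in the other 3 libraries. Both promoters are shared with a noncoding transcript (9330020H09Rik at Ccnt1 and 2900009J06Rik at Ccnt2), and the intervals are tied to both transcripts. Cdk9 itself had intervals of 5.07-fold in the second germ-free and the second conventional library.

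Cdk12 and Cdk13, related kinases of late elongation, were the kinases with most calls. Cdk12 had promoter intervals at 6.93-fold and 6.97-fold in the germ-free and 4.95-fold and 5.79-fold in the conventional pair and none in the E. coli pair. Cdk13 had 6.93-fold and 5.07-fold in the germ-free, 4.14-fold in E. coli replicate 1, and 5.66-fold and 8.69-fold in the conventional pair. Intervals of these 5 libraries merged into a region 53 to 1012 bp past the Cdk13 start, and its E. coli value was again the lowest of its list. Their partner Ccnk was called in germ-free replicate 2 (10.1-fold) and conventional replicate 2 (5.79-fold), in a promoter shared with Setd3, by intervals that did not overlap. The remaining genes of this branch had 1 or 2 calls, all in the 2 long lists: Ccnc, Cdk7, Cdk11b and Cdk19 in both, and Ccnh and Cdk10 in conventional replicate 2 alone, with folds from 5.07 to 10.1.

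Cdk8, the Mediator kinase, held the member region that all 6 libraries shared, and it was not at the promoter. The region lay in an intron, 29252 to 29701 bp past the start (chromosome 5, 146260927 to 146261376), and the stretch inside all 6 intervals was 178 bp long. Its folds were 9.81 and 14.6 for the germ-free pair, 13 and 7.84 for the E. coli pair and 7.78 and 10.9 for the conventional pair. It was 1 of 91 merged regions tied to a member that was called in all 6 libraries, and no other was. Over the whole lists 378 of 23987 merged regions were. The Cdk8 promoter, by contrast, was called in germ-free replicate 2 and conventional replicate 2 alone, at 5.07-fold in each, by intervals that did not overlap. In the E. coli lists the intronic interval was the strongest of any tied to a member.

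The G cyclins stand apart from the cycle, and both are tied to growth arrest and stress. Ccng2 was called in all germ-free and conventional libraries, at 8.08-fold and 10.8-fold in the former and 8.49-fold and 14.5-fold in the latter, and in neither E. coli library. These folds were at or above the 92.2nd percentile in each of the 4 lists. E. coli replicate 2 had an interval of 4.28-fold, the lowest of its list, 1157 to 1343 bp past the start, which was 157 bp outside the window and inside the promoter intervals of both long lists. Ccng1, which p53 induces, had 5.77-fold and 5.7-fold in the germ-free pair, 4.73-fold in E. coli replicate 1 and 6.52-fold in conventional replicate 2, in a merged region 158 to 794 bp past the start. Conventional replicate 1 and E. coli replicate 2 had no Ccng1 interval.

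**Figure D3:**
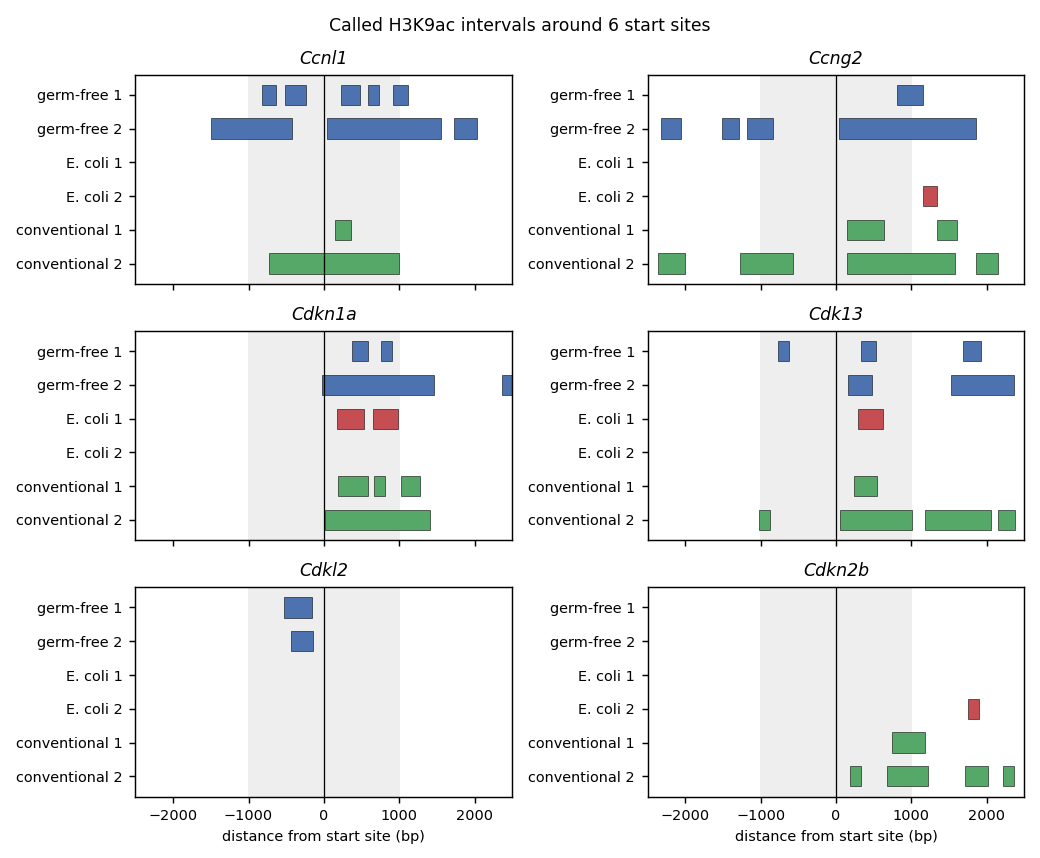
Called intervals around the start sites of 6 members. The horizontal axis is the distance from the start site in bp, positive in the direction of transcription, each row is a library, boxes are called intervals coloured by group, and the grey band is the promoter window of 1 kb on either side. At Ccng2 the E. coli interval begins 1157 bp past the start, outside the window, and at Cdkl2 only the germ-free rows hold boxes.

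Cdkl2, a CDK-like kinase, showed the reverse of Cdkn2b. It was the only member called in both germ-free libraries and neither conventional library (1 of 34, against 0.567% of all genes). Its promoter intervals had 7.5-fold and 9.5-fold enrichment in germ-free replicates 1 and 2, at the 88.2nd and 88.7th percentile of their lists. They overlapped by 281 bp, and both lay upstream of the start, between -523 and -151 bp. No other library held any interval tied to Cdkl2, at the promoter or elsewhere, conventional replicate 2 with its 15352 intervals included. Its relative Cdkl3 was called in germ-free replicate 2 and conventional replicate 2, at 5.07-fold in each.

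Cdk5, a kinase best known from neurons, was called in germ-free replicate 2 (8.87-fold) and in both conventional libraries (6.37-fold and 7.24-fold) and not in germ-free replicate 1 or the E. coli libraries. All 3 intervals lay upstream of its start in a promoter shared with the anion exchanger gene Slc4a2. Of the other less studied CDKs, Cdk17 and Cdk18 were called in the 2 long lists and Cdk16 in conventional replicate 2, with folds from 5.07 to 7.24, and Cdk15 had only an intronic interval.

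The first comparison sets germ-free mice against mice colonized with a single bacterium. The E. coli lists were also the shortest, so colonization and list length cannot be told apart in it. Of 11 members called in both germ-free libraries, 6 had no promoter interval in either E. coli library: Ccnl1, Ccng2, Cdkl2, Cdk12, Cdkn1b and Ccnt1. That was 17.6% of the 34 members, against 15.1% of all genes, and 54.5% of those called in both germ-free libraries, against 65.6%. No member showed the opposite pattern, against 0% of all genes. The members thus stood near the background in this comparison. Without germ-free replicate 1 the 6 became 21 (56.1% of all genes), without E. coli replicate 1 they became 10 (19.6%), and with lists of equal length or with 200 bp of overlap they became 2 (0.742% and 9.19%). With a window of 2.5 kb they became 5 (15.7%), as Ccng2 left the pattern. The other 5 were called in 1 E. coli library each, Ccng1, Ccnl2, Cdk13 and Cdkn1a in replicate 1 and Ccnt2 in replicate 2. The E. coli lists thus shared no promoter call of a member, where replicate 2 had only 1 such call to share. Of all genes with a promoter interval in E. coli replicate 2, 60.6% had one in E. coli replicate 1.

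The second comparison sets a complete microbiota against the single bacterium. Of 10 members called in both conventional libraries, 6 had no promoter interval in either E. coli library: Ccng2, Ccnl1, Cdkn1b, Cdk5, Cdkn2b and Cdk12. That was 17.6% of the members, against 12.6% of all genes, and 60% of those called in both conventional libraries, against 61.9%. The opposite pattern was again empty (0 members, 0% of all genes). Without conventional replicate 1 the 6 became 22 (63.2% of all genes), and with lists of equal length they became 2 (1.04%). With a window of 2.5 kb they became 5 (12.8%). Ccng2 and Cdkn2b, which have intervals of E. coli replicate 2 inside that window, then left the pattern, and Cdk6 entered it. This comparison and the one with germ-free mice share the E. coli libraries. For conventional against germ-free libraries the patterns held 1 member in each direction, Cdkn2b and Cdkl2. Cdkn2b was no longer in its pattern once a -log10 q of at least 5 was asked for, and neither gene was in one with lists of equal length. Over all intervals of any class, 10 of the 91 member regions were called in an E. coli library, and 9 of these were called in another group as well, the exception being an intronic interval of Ccnd3.

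The 2 long lists shared most of their members, but not always the same stretch of promoter. Germ-free replicate 2 and conventional replicate 2 shared 23 members, 88.5% and 85.2% of their members, beside 87.1% and 78.6% of all genes called in them. Of 12 members called in these lists alone, 7 had overlapping promoter intervals and 5 (Ccnk, Cdk6, Cdk8, Cdk18 and Cdkn2c) had none that overlapped. These 5 were 41.7% of the 12, against 16% of 2650 genes called in these lists alone, a difference that was not tested. Only intervals in the window were compared. At Cdk6 the promoter interval of germ-free replicate 2 did overlap an interval of conventional replicate 2 that ended 9 bp outside the window. The 11 members called in both germ-free libraries and the 10 called in both conventional libraries all had overlapping intervals, by 75 to 894 bp, as did 91.3% and 96.2% of all genes so called.

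Over all libraries, promoter intervals of the members lay mostly past the start site. Of 98 intervals tied to 1 gene only, 66.3% were downstream of the start, 27.6% upstream and 6.12% across it, against 70.5%, 19% and 10.5% of 21386 intervals of all genes. The libraries differed in this. The downstream share of members' intervals was below that of all genes in the germ-free pair (52.9% of 17 against 79.4%, and 57.6% of 33 against 66.8%). It was above it in E. coli replicate 1 (100% of 5 against 82.8%) and in the conventional pair (90% of 10 against 84%, and 69.7% of 33 against 66.9%). The same promoter can give several of these intervals and recur across libraries, and Ccnl1 alone gave 5 of the 17 in germ-free replicate 1. These differences between libraries were not tested. The pileup of these calls, a height of coverage and not a count of all reads in an interval, was small. In the 5 lists that give it, the strongest promoter interval of a member had a pileup of 4 to 23 extended reads. The median was 8, and 24 of the 53 had at most 7.

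The sequence table held promoters for 27 of the 34 members. Motifs were searched on both strands of the 300 bases around each start for exact matches. The CCAAT word was found in 13 members (48.1%, against 39% of 17491 promoters) and the E-box, with the letters CACGTG, in 5 members (18.5%, against 7.9%), namely Cdk6, Cdk7, Cdk8, Cdk18 and Cdkn2c. For Cdk6 and Cdk8 the start searched lies 419 and 425 bp from the start site in the lists. The CRE word, spelled TGACGTCA, was in Ccnl1 and Cdkn2b (7.41%, against 2.34%). Of the words known from promoters of the division cycle, an E2F-like set (TTTCGCGC, TTTGGCGC, TTTCCCGC and TTTGCCGC) matched in Cdk2 alone (3.7%, against 2.92%) and the CHR word, spelled TTTGAA, in Cdkn2b alone (3.7%, against 16.5%). The TATA word, spelled TATAAA, was in Cdk6 alone (3.7%, against 13.3%). The members' promoters had a median GC content of 62.3% and 24 CpG, against 56.3% and 13 over all promoters. All promoters here are those of the sequence table, whether or not the lists name their gene. The members, by contrast, were chosen by a called interval. A trait of the family therefore cannot be told apart from a trait of listed genes in these shares and medians.

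Genes that work with the cyclins and CDKs had most of their calls in the same 2 long lists. Of 22 regulators of G1 and S phase outside the family, such as the E2F factors and the retinoblastoma proteins, 18 had a promoter interval in some library, all 18 of them in conventional replicate 2, 12 in germ-free replicate 2, 4 in germ-free replicate 1, 2 in conventional replicate 1, and 0 and 1 in the E. coli libraries. Of 31 regulators of G2, mitosis and checkpoints, 20 were called in some library, with 6 and 18 for the germ-free pair, 1 and 0 for E. coli mice and 1 and 17 for conventional mice. Of 22 genes of DNA replication and proliferation, 11 were called, with 10 in germ-free replicate 2, 9 in conventional replicate 2 and at most 2 in any other. Over all protein-coding genes of the RefSeq table, 37% had a promoter interval in some library, 29.6% and 32.8% in those 2 long lists, 11% and 9.08% in the first germ-free and the first conventional library, and 4.21% and 1.87% in the E. coli pair. Of 28 cyclins and CDK partners whose symbols fall outside the spelling used here, 24 were called, and Hexim2, an inhibitor of Cdk9, was called in all 6 libraries. Its folds were 13.3 and 13.9 for the germ-free pair, 8.88 and 7.84 for the E. coli pair and 8.49 and 16.7 for the conventional pair.

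**Figure D4:**
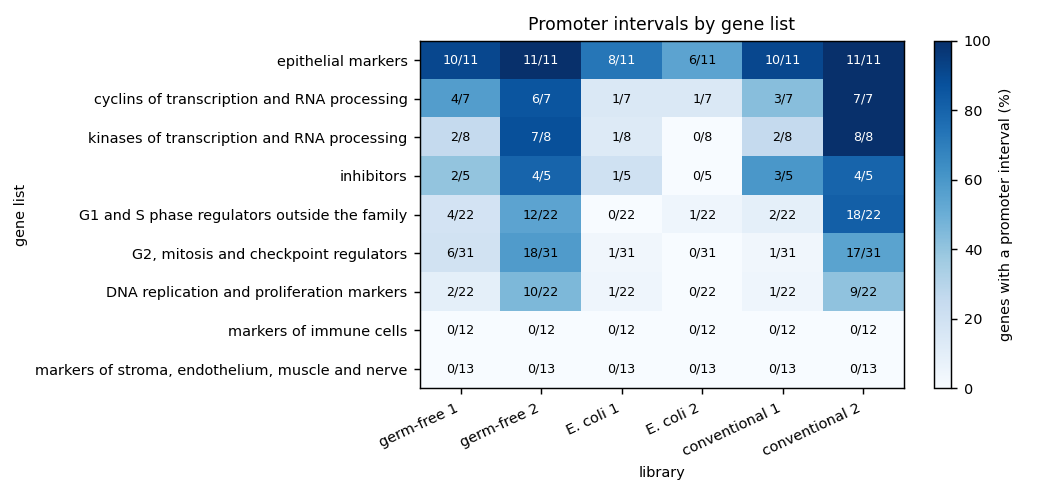
Promoter intervals by gene list (rows) and library (columns). Each cell gives the number of genes called over the number in the list, and its shade the percentage; the family rows hold the listed members only. All epithelial markers were called in both long lists, and the 2 lists of other cell types had no call in any library.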

How the data were processed

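H3K9ac chromatin immunoprecipitation was analysed in 6 libraries of 3 groups, grouped by the labels. The submitters' processing notes name MACS2 2.1.1.20160309, Bowtie 1.2.0 and, as the build, mm10. For peak calling options and any input control, the answer is not given in the sources used here. Intervals came as 1 list per library, so each library was called on its own. The deposited columns were the pileup signal (coverage by extended reads), the -log10 p, the fold enrichment (a ratio to background) and the -log10 q, per the file headers. In the deposited list of the second germ-free library, lines had 13 cells under 14 header names, so its values were read by their relation to each other and no pileup was held. Mitochondrial lines, which are shorter and name no gene, were left out of gene counts. In E. coli replicates 1 and 2 and conventional replicate 1 they put other cells under the last 3 deposited value columns, whose unit was therefore recorded as other and not checked by range.

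Lines of 1 interval were merged. Of 10621 names, 10566 matched the RefSeq table of GRCm38.p6, and protein-coding genes were kept. Every one of the 124 member promoter intervals lay within the window of the member's own start. Values were computed with Python 3.11.15, pandas 2.3.3, NumPy 2.4.6 and SciPy 1.17.1 and drawn with matplotlib 3.10.9. The calling code was tested on simulated lists. Named were members called in 4 or more libraries or in a both-and-neither pattern, with the others by role. The members and the gene lists were chosen with earlier results of these data known, so the p of the planned exact permutation test is not given beside the members' numbers. Folds are the authors' own and rank intervals within a list; they were not compared between libraries. Alternatives were a window of 2.5 kb, a -log10 q of 5 or more, equal list lengths of 870, an overlap of 200 bp, unshared intervals, leaving out each library and the replicate block.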

Additional observations from a re-analysis of the deposited data

How the results depend on the processing

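Of 87 recomputed values, 70 kept their direction or stayed within 1.5 times. Among these are 3 of the replicate block, which are fixed by construction. Also among them are counts that were 0 in every setting: both E. coli and neither library of another group, and all 6 libraries. The number of members in conventional minus germ-free libraries changed sign with 200 bp of overlap (0.34 on the log2 scale) and ranged from -0.76 to 0.67 when single libraries were left out. It was 0.58 without germ-free replicate 2 and 0.67 without conventional replicate 1. E. coli minus germ-free ranged from -4.08 to -2.08 and conventional minus E. coli from 2.04 to 4.04 when single libraries were left out. With equal list lengths these were -2.4 and 1.66, with a window of 2.5 kb -2.38 and 2.31, and with 200 bp of overlap -2.42 and 2.76. At a -log10 q of 5 or more, E. coli replicate 2 held 0 members, so these differences have no value there.

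The members that both germ-free lists and no E. coli list called became 2 with equal list lengths and 2 with 200 bp of overlap, and 6 to 21 without single libraries (21 without germ-free replicate 1, 10 without E. coli replicate 1). Both conventional and neither E. coli gave 2 with equal list lengths and 6 to 22 without single libraries (22 without conventional replicate 1). Both conventional and neither germ-free gave 0 at the stricter -log10 q, 0 with equal list lengths, and 1 to 4 without single libraries (2 without germ-free replicate 2, 4 without conventional replicate 1). Both germ-free and neither conventional gave 2 at the stricter -log10 q, 0 with lists of equal length, and 1 to 3 without single libraries (3 without germ-free replicate 1 or conventional replicate 2). Leaving out a library asks for fewer calls by construction; otherwise the cause was not tested.

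With the replicate number as a block, the differences were -3.08, 3.04 and -0.04. They equal the values without it by construction, since every group holds a replicate 1 and a replicate 2. Correlations of same-numbered libraries' deviations were 0.05, 0.19 and 0.04 over genes. With 2 libraries per group they cannot tell whether same-numbered libraries were handled together. In germ-free and conventional mice replicate 2 had the longer list (17094 and 15352 intervals), and in E. coli mice replicate 1 had it (1988).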
